A study of Mus musculus with 13 samples.

Results

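The 10 RNAs described here are long noncoding RNAs of Sertoli cells: *Malat1*, *Neat1*, *Miat* and *Firre*, which are known to stay in the nucleus, *Gas5*, *Snhg1*, *Snhg3*, *Snhg11* and *Snhg12*, which carry small nucleolar RNAs (snoRNAs) in their introns, and *Norad*, a long RNA known mainly from the cytoplasm. They were selected on values of these same samples. The level of *Malat1* had been seen to move against the mean level of the nuclear electron transport chain (ETC) genes and with that of the mitochondrially encoded genes. The other 9 were listed to see which of them moved with *Malat1*. Of the 10, 9 have a row of exactly their name in the deposited table of 54281 features. *Norad* has none, and the row *2900097C17Rik*, which lies within 100 bases of the RefSeq gene at both ends, was taken in its place. All 10 had enough counts to enter the fits. GENCODE vM21 gives *Snhg11* the type protein coding, and it is kept here as a listed member.

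The samples were Sertoli cells, the somatic support cells of the seminiferous tubule, from adult wild-type C57Bl/6J (Bl6 wt) males aged 3 to 5 months. As pups, the 7 MSUS males (the abbreviation stands for unpredictable separation from a mother who is herself stressed) had been taken from the mother for 3 h a day on postnatal days 1 to 14 while she was stressed by a cold swim or restraint, and the 6 control males had been left alone. The cells were enriched from digested testis by FACS on diploid DNA content, size and a high MitoTracker signal, so the preparations can hold other testicular cells, and the sort itself used a mitochondrial dye. Siblings had been placed in different cages, and litters are not given in the labels, so p-values measure the spread between these males.

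Control libraries held 13087203 to 18649945 estimated counts and MSUS libraries 12701776 to 15693938, and all 78 pairs of libraries differed beyond counting noise (chi-square per degree of freedom 5.96 to 47.2). Markers of Sertoli cells were high throughout: the mean over *Amhr2*, *Clu*, *Ctsl*, *Rhox5* and *Sox9* lay between 10.05 and 10.32 log2 CPM (the log2 of the counts scaled to a common library size) in controls and between 10.03 and 10.29 in MSUS samples. The 4 elongated spermatid markers *Prm1*, *Prm2*, *Tnp1* and *Tnp2* were present too, with control means of 7.50 to 8.15 and MSUS means of 7.26 to 8.55, and none was at 0 in any library. The 3 peritubular myoid markers *Acta2*, *Myh11* and *Des* were not at 0 in any library either, with control means of 0.95 to 3.77 and MSUS means of 1.30 to 4.37. Spermatocyte marker means were higher, at 5.08 to 5.60 in controls and 4.45 to 5.77 in MSUS samples. In the same order, round spermatid means were 3.61 to 4.05 and 3.55 to 4.88, and Leydig cell means 1.35 to 3.18 and 2.39 to 3.41. Endothelial means were 2.22 to 2.64 and 2.32 to 2.90, and spermatogonia means 0.83 to 1.44 and 0.80 to 1.59. Of the 4 macrophage markers none had enough counts to be tested, and *C1qa* was at 0 in 12 of 13 libraries.

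Long noncoding RNAs act as transcripts rather than as templates for protein. *Malat1* collects in nuclear speckles, the stores of splicing factors, and *Neat1* is the scaffold of paraspeckles, while *Firre* and *Miat* are held at other nuclear sites. The snoRNA hosts work differently: their introns release box C/D or H/ACA snoRNAs, which guide chemical modification of ribosomal RNA, and the spliced exons are mostly short-lived because ribosomes that enter them trigger nonsense-mediated decay. Many host genes begin transcription at a 5′ terminal oligopyrimidine (TOP) stretch, as the genes of ribosomal proteins do.

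*Malat1* and *Neat1* are neighbours. On chromosome 19 of GRCm38, the build of all coordinates given here, *Malat1* spans 5795690 to 5802672 and *Neat1* 5824708 to 5845478, both on the minus strand and 22035 bases apart. Both the long form of *Neat1* and *Malat1* are known to end without an ordinary poly(A) tail, at a site cut by RNase P, behind U-rich stretches that fold back on an A-rich end. The 100 bases that close this stretch are shown because *Neat1* had the highest r with *Malat1* of the other members and ends in the same way. Capitals mark T-rich runs broken by G or C and the 11 bases that are identical at both ends. They are written as DNA, 5′ to 3′ on the transcribed strand.
Malat1, chr19:5795982-5796081, minus strand: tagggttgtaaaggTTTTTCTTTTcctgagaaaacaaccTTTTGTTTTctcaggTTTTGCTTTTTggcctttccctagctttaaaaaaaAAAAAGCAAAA
Neat1, chr19:5824708-5824807, minus strand: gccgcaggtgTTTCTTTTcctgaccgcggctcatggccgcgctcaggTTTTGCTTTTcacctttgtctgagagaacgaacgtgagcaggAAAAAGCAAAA
The *Malat1* stretch has 3 such T-rich runs and lies 292 bases before the end of the longest GENCODE transcript, and that of *Neat1* has 2 and ends with the transcript of 20771 bases.

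Levels were compared between genes per kilobase of the union of their annotated exons, in controls. *Malat1* was the highest with a log2 CPM per kilobase of 7.12 ± 0.56 (SD, n = 6), followed by *Norad* with 6.12 ± 0.13 (SD, n = 6). The hosts *Snhg3* (3.27 ± 0.20), *Snhg1* (3.23 ± 0.46), *Snhg12* (3.17 ± 0.30) and *Gas5* (2.94 ± 0.12) came next, and neighbours in this order differed by no more than the larger of their SDs. *Firre* had 2.26 ± 0.44 and *Neat1*, the longest RNA, 0.07 ± 0.40. The exon union of *Neat1* is 20771 bases over 4 annotated transcripts. Its level per kilobase is understated if shorter transcripts carry the reads, which was not tested. The counts of *Snhg1*, *Snhg12* and *Gas5* can hold reads of snoRNAs within their exons, as given below, so this order is limited by annotation. *Miat* (-2.75 ± 1.03) and *Snhg11* (-3.13 ± 0.88) were the lowest and differed by less than their SDs. These last 2 rest on 4 to 35 and 4 to 30 estimated counts a library, against 5867 to 27444 for *Malat1*, 154 to 478 for *Neat1* and 283 to 777 for *Firre*.

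In the control males *Malat1* ranged from 9.15 to 10.68 log2 CPM with a median of 9.99, and in the MSUS males from 10.16 to 11.28 with a median of 10.44. The groups overlapped: 3 MSUS samples lay above all controls and 4 controls lay below all MSUS samples. Over the 13 samples the highest level was 4.36 times the lowest. The means were 9.92 ± 0.56 (SD, n = 6) and 10.63 ± 0.43 (SD, n = 7), a fitted difference of 0.70 (SE 0.22) on the log2 scale. The RNA was picked on its pattern over these samples, so this difference is a description and carries no test. In bulk samples fewer cells of a type and less RNA per cell cannot be told apart. The same holds for the relations that chose it: Pearson's r over the 13 samples was -0.85 with the score of 80 nuclear ETC genes and 0.82 with that of 13 mitochondrially encoded genes, where a score is the mean deviation of a sample's log2 CPM from each gene's mean. The score of 83 ribosomal protein genes ran almost in parallel with the ETC score (r = 0.97) and had an r of -0.82 with *Malat1*.

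**Figure D1:**
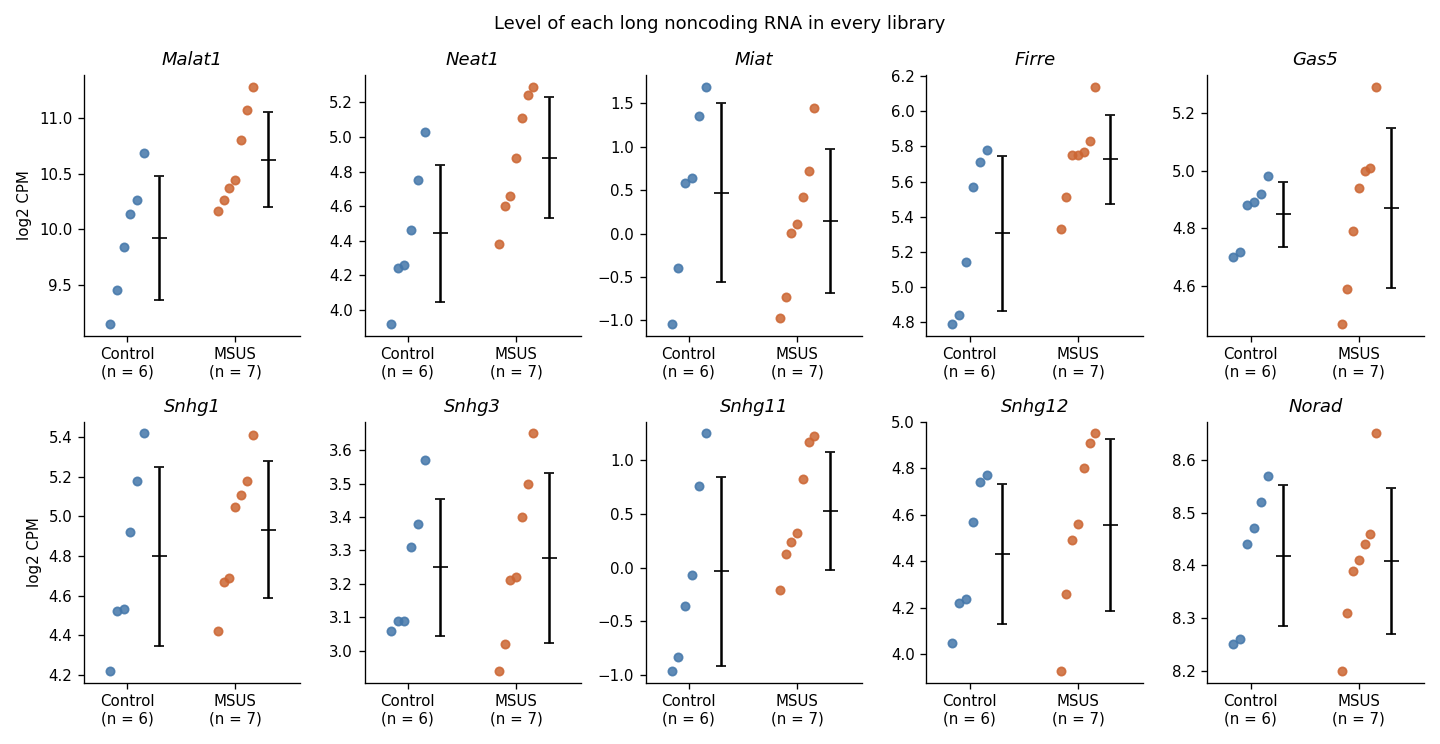
Level of each of the 10 RNAs (y axis, log2 CPM, own scale per panel) in the 6 control (blue) and 7 MSUS (orange) samples, each group in ascending order, with the mean and SD beside it. The MSUS mean lies above the control mean by 0.701 log2 units for Malat1, 0.565 for Snhg11, 0.438 for Neat1 and 0.421 for Firre. The groups overlap in every panel, and Snhg11 rests on 4 to 30 estimated counts a library.

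*Neat1* and *Firre* moved with *Malat1*. *Neat1*, which builds paraspeckles, had control levels from 3.92 to 5.03 log2 CPM with a median of 4.36 and MSUS levels from 4.38 to 5.29 with a median of 4.88. *Firre*, an X-linked RNA (X, 50555744 to 50635321) that anchors chromatin through the protein *Hnrnpu*, had control levels from 4.79 to 5.78 with a median of 5.35 and MSUS levels from 5.33 to 6.14 with a median of 5.75. For all 3 RNAs the lowest of the 13 values was that of Control 24 (9.15, 3.92 and 4.79 for *Malat1*, *Neat1* and *Firre*) and the highest that of MSUS 5 (11.28, 5.29 and 6.14).

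Pearson's r with *Malat1* was 0.91 for *Neat1* and 0.89 for *Firre* over the 13 samples (permutation p = 1e-05, the smallest that 100000 resamples can give, and 3e-05; Benjamini-Hochberg adjusted over all 14420 genes 0.0076 and 0.011). Spearman's rho was 0.86 and 0.80, with permutation p of 0.00045 and 0.0016 and adjusted values of 0.035 and 0.059, so *Firre* missed the threshold on ranks. Of all genes 223 (1.55%) had a positive Pearson's r past the adjusted threshold, and the median r over all genes was -0.0079. Without the 2 samples farthest from the median *Malat1* level, Control 24 and MSUS 5, r was 0.84 for *Neat1* and 0.78 for *Firre* and neither passed (permutation p = 0.00098 and 0.0041; adjusted 0.086 and 0.15). With the group means subtracted from every level, r was 0.88 for *Neat1* (permutation p = 0.00018; adjusted 0.0403) and 0.84 for *Firre* (permutation p = 0.00053; adjusted 0.0538, which misses the threshold). Within the 6 controls r was 0.93 and 0.88, and within the 7 MSUS samples 0.82 and 0.79, with exact permutation p between 0.011 and 0.035 before adjustment. None passed the threshold after it, but so few samples allow few orderings. After adjustment over all genes this test could hardly give a call, and nothing is read from its absence. *Neat1* and *Firre* had an r of 0.84 with each other.

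The slope on *Malat1* was also fitted for every gene with group in the model, so that a difference shared by the MSUS males does not enter it. *Neat1* rose by 0.67 (SE 0.12) log2 units per log2 unit of *Malat1* and *Firre* by 0.57 (SE 0.11), with limma voom adjusted p of 0.0148 and 0.0286. They were 2 of the 88 genes called positive of 14420 (0.61%), while 9 genes (0.0624%) were called negative, and no other member was called. The intervals at 95% were 0.43 to 0.92 for *Neat1* and 0.33 to 0.81 for *Firre*. The calls rest on single libraries: without MSUS 5, 14 genes were called and neither RNA was among them (slopes 0.69 and 0.55), and without Control 10, 18 genes and again neither (0.62 and 0.67). *Firre* also missed the threshold without Control 9, Control 24 or MSUS 13, where its slope lay between 0.53 and 0.54. With the share of mitochondrially encoded counts as a covariate no gene was called, and the slopes were 0.82 for *Neat1* and 0.70 for *Firre* (adjusted p = 0.391 and 0.492). Their SEs were then 0.18 each, against 0.12 and 0.11 without it. The level of the mitochondrially encoded genes is one of the values that chose *Malat1*. This covariate therefore overlaps with *Malat1* by selection, and nothing is read from the lost calls.

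**Figure D2:**
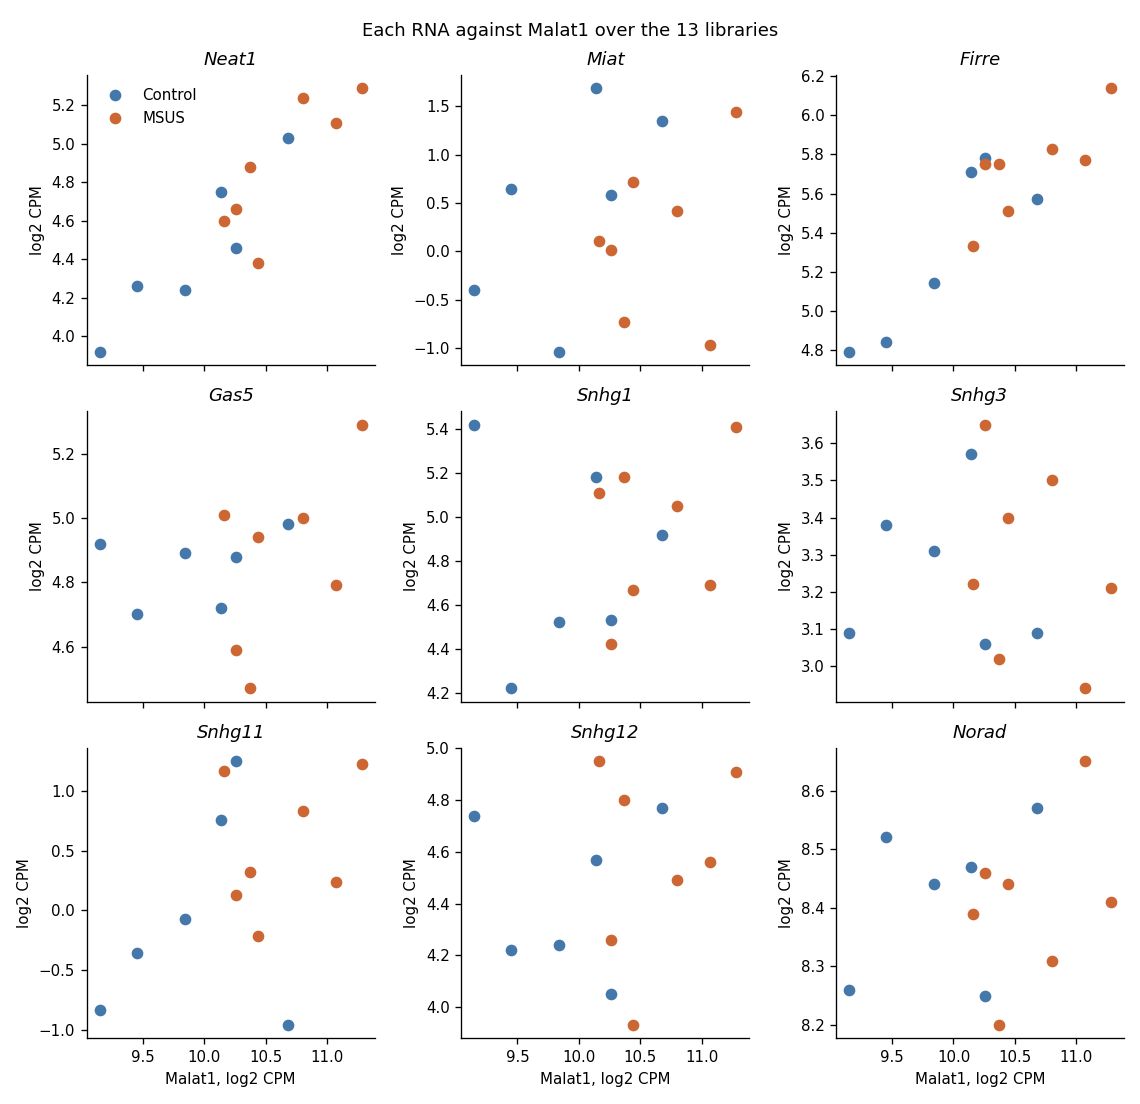
Level of each of the other 9 RNAs (y axis, log2 CPM) against that of Malat1 (x axis, log2 CPM), 1 point per sample, controls in blue and MSUS in orange. The points of Neat1 (r = 0.91) and Firre (r = 0.89) rise with Malat1 and those of the remaining 7 scatter, with r between -0.14 and 0.44.

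*Miat*, the fourth nuclear RNA, could not be resolved at this depth. Control levels ran from -1.04 to 1.69 log2 CPM (median 0.61) and MSUS levels from -0.97 to 1.44 (median 0.11), a 6.64-fold range over the samples. The slope on *Malat1* was 1.01 (SE 0.55, 95% interval -0.16 to 2.17, limma voom adjusted p = 0.441), an interval that holds both 0 and the slopes of *Neat1* and *Firre*. Pearson's r was 0.24 (permutation p = 0.43; adjusted 0.76) and changed sign to -0.098 without Control 24 and MSUS 5.

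The 5 snoRNA hosts were not called on *Malat1*. *Gas5* (chromosome 1, 161034422 to 161038539), a host named for its rise in growth-arrested cells, had the slope nearest to the threshold with 0.18 (SE 0.12, 95% interval -0.06 to 0.43; limma voom adjusted p = 0.518). The slopes of *Snhg1* (0.11, interval -0.33 to 0.54), *Snhg3* (-0.13, interval -0.46 to 0.20) and *Snhg12* (0.12, interval -0.27 to 0.52) had limma voom adjusted p between 0.777 and 0.86. *Snhg11*, at its few counts, had 0.31 with an interval of -0.74 to 1.35. Pearson's r with *Malat1* over the 13 samples ran from -0.14 for *Snhg3* to 0.44 for *Snhg11*, with adjusted permutation p of 0.44 or more. The upper bounds of *Gas5*, *Snhg1*, *Snhg3* and *Snhg12* lie below the fitted slopes of *Neat1* and *Firre* and that of *Snhg11* lies above them, and a difference of slopes between hosts and nuclear RNAs was not tested. *Norad* (2, 156388065 to 156392979) was the steadiest of the 10, with a 1.37-fold range over all samples, and had a slope of 0.10 (interval -0.06 to 0.26).

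Between samples of the same group all members but *Snhg3* varied more than most genes of like level. The highest percentiles were those of *Snhg1*, *Firre*, *Neat1* and *Malat1*. Their pooled SDs within groups were 0.40, 0.35, 0.37 and 0.49 log2 units, at percentiles 96.9, 96.0, 93.8 and 91.3 among the genes within 0.5 log2 CPM of each. For *Malat1* these were only 46 genes, and it was picked on its pattern over these samples, so its spread is a description. *Snhg12* stood at percentile 89.6, *Miat* at 88.9, *Snhg11* at 63.4, *Snhg3* at 26.5, *Norad* at 64.2 and *Gas5* at 70.8.

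The genes whose levels over the 13 samples were most like those of *Malat1*, with predicted genes left out, were *Med12* (r = 0.97), a subunit of Mediator, *Srek1* (0.97), a splicing regulator, *Leng8* (0.96), *Pnisr* (0.96), an SR-related protein of speckles, and *Son* (0.96), a speckle scaffold. The lowest r belonged to *Eef1a1* (-0.94), *Eif5a* (-0.94) and *Eif3l* (-0.90), which serve translation, *Ssu72* (-0.94), a phosphatase of RNA polymerase II, and the ribosomal protein gene *Rpl15* (-0.91). *Neat1* was most like *Srsf5* (0.96), a splicing factor, *Kifc2* (0.92) and *Mapk8ip3* (0.92), and *Firre* was most like *Dmpk* (0.96), *Irak1* (0.94), which also lies on the X chromosome, and *Zc3h7a* (0.92). These are descriptions over 13196 genes compared and carry no test.

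Lists of partner genes were counted in the slope fit on *Malat1*, whose median over all genes was -0.002 and which called 0.61% of all genes positive and 0.0624% negative. Of 17 nuclear speckle and splicing factor genes 5 were called positive and 0 negative, with a median slope of 0.20. *Son* had a slope of 0.31 (SE 0.05, limma voom adjusted p = 0.00686), *Srrm1*, a splicing coactivator, 0.29 (SE 0.05, adjusted p = 0.0158) and *Srsf10* 0.28 (SE 0.06, adjusted p = 0.0394). Of 14 paraspeckle protein genes 2 were called, both positive: *Cpsf6*, a cleavage factor, with 0.35 (SE 0.07, adjusted p = 0.0286) and *Sfpq*, which binds along *Neat1*, with 0.26 (SE 0.06, adjusted p = 0.0451), at a list median of 0.07. Of 14 nonsense-mediated decay factors 1 was called, *Upf3b* with 0.36 (SE 0.07, adjusted p = 0.0286), at a list median of 0.08. These calls share the libraries named above. None was left with the mitochondrial share as a covariate, which overlaps with *Malat1* by selection.

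None of the 14 other snoRNA hosts and none of the 7 other nuclear long noncoding RNAs tested was called on *Malat1*. The median slopes were -0.07 and 0.16. *Kcnq1ot1*, which silences imprinted genes, had 0.31 (SE 0.11, limma voom adjusted p = 0.217) and *Tug1* 0.12 (SE 0.06, adjusted p = 0.428), while the hosts *Snhg8* and *Snhg4* had -0.33 (SE 0.18) and -0.28 (SE 0.16). Of 10 snoRNP protein genes none was called; *Nhp2*, a core protein of H/ACA particles, had -0.35 (SE 0.09, adjusted p = 0.0953). Of 11 genes for the RNases P and Z that cut the *Malat1* end none was called, and *Rpph1*, the RNA subunit of RNase P, had -0.41 (SE 0.10, adjusted p = 0.0749). *Hnrnpu*, the protein partner of *Firre*, had 0.11 (SE 0.07) without a call.

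For comparison, 6 of 83 ribosomal protein genes were called negative on *Malat1* and 0 positive, with a median slope of -0.23, and *Rps18* had -0.33 (SE 0.06). Of the mitochondrially encoded genes 7 of 13 were called positive and of the nuclear ETC genes 0 of 80 in either direction, with median slopes of 0.66 and -0.20. The last 2 lists chose *Malat1* and the first runs in parallel with one of them, so nothing is read from these counts.

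No gene was called between MSUS and control males by limma voom at an adjusted threshold of 0.05 (0 of 14421, 0%), by edgeR's quasi-likelihood test or by DESeq2. At an unadjusted p under 0.05 limma voom had 435 genes higher (3.02%) and 346 lower (2.4%). Of the 9 RNAs other than *Malat1*, *Neat1* and *Firre* were among the higher and none was among the lower.

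*Neat1* had a fitted MSUS difference of 0.42 (SE 0.18) on the log2 scale, with means of 4.44 ± 0.40 (SD, n = 6) and 4.88 ± 0.35 (SD, n = 7). Its limma voom p was 0.0287 before adjustment and 0.878 after it. That of *Firre* was 0.41 (SE 0.16), with means of 5.30 ± 0.44 (SD, n = 6) and 5.73 ± 0.25 (SD, n = 7), and a limma voom p of 0.0205 before adjustment and 0.878 after it. The exact two-sided permutation test, with all 1716 ways to assign the labels, gave p = 0.0606 for each. The groups overlapped in both: 3 MSUS samples for *Neat1* and 2 for *Firre* lay above all controls, and 3 controls lay below all MSUS samples in either case. With the *Malat1* level in the model the differences were -0.03 (SE 0.13) for *Neat1* and 0.01 (SE 0.13) for *Firre*. *Malat1* was picked on these same samples, itself lay higher on average in MSUS males and moved with both RNAs. Nothing is therefore read from the smaller differences.

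The hosts and *Norad* gave no call, and the groups overlapped in each. *Snhg1* had control levels of 4.22 to 5.42 log2 CPM (median 4.72) and MSUS levels of 4.42 to 5.41 (median 5.05). For *Snhg12* the levels were 4.05 to 4.77 (median 4.41) and 3.93 to 4.95 (median 4.56), and for *Snhg3* 3.06 to 3.57 (median 3.20) and 2.94 to 3.65 (median 3.22). For 3 of the hosts, *Gas5*, *Snhg3* and *Snhg12*, and for *Norad* the MSUS range held the whole control range. *Gas5* was at 4.85 ± 0.12 (SD, n = 6) in controls and 4.87 ± 0.28 (SD, n = 7) in MSUS samples, a difference of 0.02 (95% interval -0.22 to 0.26). *Snhg3* differed by 0.04 (interval -0.26 to 0.34), *Snhg12* by 0.13 (-0.22 to 0.48), *Snhg1* by 0.15 (-0.24 to 0.54) and *Norad* by -0.01 (-0.16 to 0.14). The intervals of *Gas5*, *Snhg3* and *Norad* leave out the fitted differences of *Neat1* and *Firre*, and those of *Snhg1* and *Snhg12* hold them. A difference between these effects was not tested. *Snhg11* had 0.68 (interval -0.24 to 1.6) and *Miat* -0.34 (interval -1.45 to 0.77), both too wide at their counts to show a change of that size. Exact permutation p for these 7 RNAs lay between 0.18 and 0.90.

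**Figure D3:**
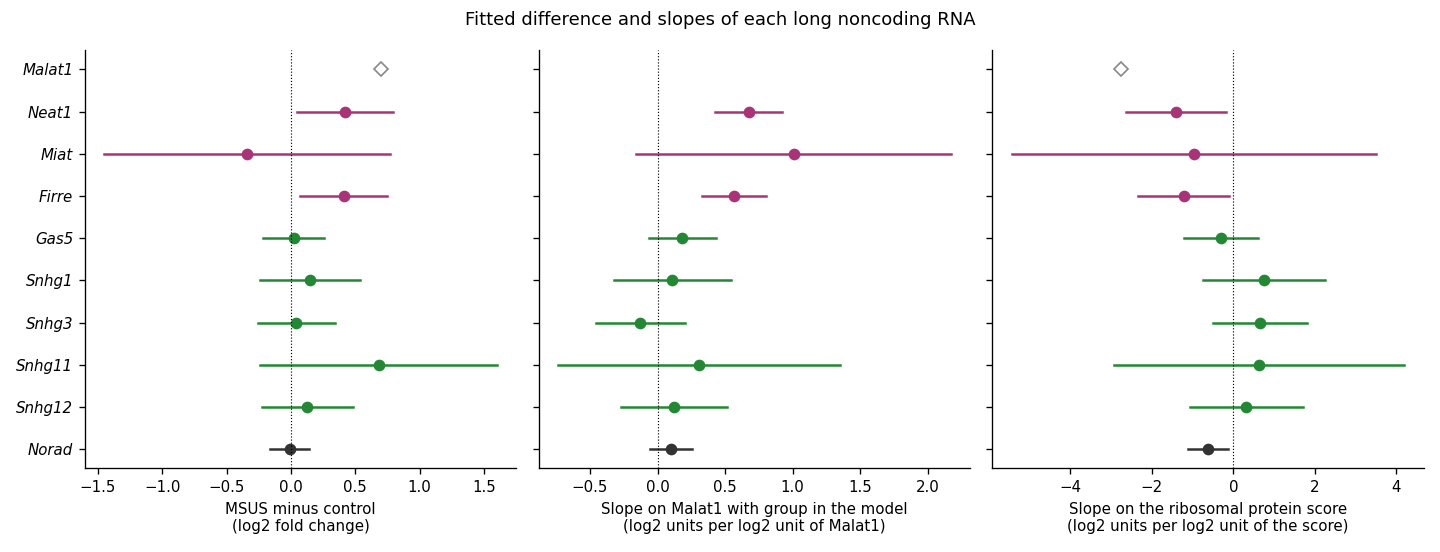
Fitted MSUS difference (left), slope on Malat1 (middle) and slope on the ribosomal protein score (right) of each RNA, with 95% intervals from limma voom, nuclear RNAs in purple, hosts in green and Norad in black. Malat1 is an open diamond without interval because it was selected on these samples. In the middle panel the intervals of Neat1 (0.43 to 0.92) and Firre (0.33 to 0.81) lie above 0.

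Ribosomal protein genes share the TOP start with many snoRNA hosts, which raises the question whether the hosts followed them. The bases around the annotated start of 4 hosts are shown, 20 before and 20 from the start on, with runs of C followed by at least 4 C or T in capitals where one begins within 10 bases of the start. They come from RefSeq's GRCm38.p6.
Gas5, second annotated start, chr1:161035146-161035185, plus strand: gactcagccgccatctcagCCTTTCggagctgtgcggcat
Snhg12, chr4:132308658-132308697, plus strand: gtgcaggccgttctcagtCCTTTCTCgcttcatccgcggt
Snhg3, chr4:132353667-132353706, minus strand: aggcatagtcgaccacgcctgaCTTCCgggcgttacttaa
Snhg1, chr19:8723467-8723506, plus strand: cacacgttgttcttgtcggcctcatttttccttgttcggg
On the transcribed strand the first transcribed base was a C followed by at least 4 C or T, whether or not the run began before it, in 1 of 6 annotated host starts, in 15 of 76 starts of ribosomal protein genes (19.7%) and in 2.51% of all 32851 promoters. A run began within 10 bases of the start in 3 of the 6, in 56.6% and in 30.7%. *Snhg1*, *Snhg11* and the first annotated start of *Gas5* have none in this window.

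On the ribosomal protein score no host was called. The slopes, per log2 unit of the score and with group in the model, were 0.76 (SE 0.71) for *Snhg1*, 0.65 (SE 0.55) for *Snhg3*, 0.32 (SE 0.66) for *Snhg12*, 0.63 (SE 1.68) for *Snhg11* and -0.31 (SE 0.43) for *Gas5*, with limma voom adjusted p between 0.59 and 0.901. The nuclear RNAs had negative slopes, -1.40 (SE 0.58) for *Neat1*, -1.22 (SE 0.53) for *Firre* and -0.97 (SE 2.11) for *Miat*, and *Norad* had -0.62 (SE 0.23), all without a call (adjusted p = 0.161 to 0.872). *Malat1*, given as a description, had -2.76. Of 14338 genes 117 were called positive (0.816%) and 383 negative (2.67%). This total of 500 fell to 1 without MSUS 26, whose ribosomal protein score of -0.32 was the lowest, and to 87 without Control 10. Of the 14 other hosts, *Snhg4* with 1.76 and *Snhg20* with 1.56 were called positive (adjusted p = 0.0464 and 0.0466), at a list median of 0.87 against 0.0123 over all genes. Positive slopes were not particular to the hosts: of 64 snoRNA genes 61 had one, with a median of 1.47, and 1 was called. Reads of snoRNAs can be assigned to some hosts, as given below, and their part in these slopes was not tested.

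*Snhg1* and *Snhg12* resembled the snoRNAs themselves. Of the 20 genes whose levels were most like those of *Snhg1* over the 13 samples, 14 were snoRNAs, and of those most like *Snhg12*, 12 were, whereas snoRNAs made up 64 of the genes compared (0.485%). For the other 8 RNAs none of the 20 was a snoRNA. *Snhg1* was most like *Snord33* (r = 0.97), which lies in an intron of a ribosomal protein gene, *Snord100* (0.96) and *Snord58b* (0.96), and *Snhg12* was most like *Snord61* (0.95), *Mir6236* (0.94) and *Snord57* (0.91). None of these 5 snoRNAs is annotated in the span of either host.

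A score over the 64 snoRNAs tested, formed after these values were seen, had control values of -0.65 to 0.69 and MSUS values of -0.63 to 0.54. Its r was 0.95 with *Snhg1* and 0.78 with *Snhg12*, against 0.31 for *Gas5*, 0.21 for *Snhg11* and -0.28 for *Snhg3*, and 0.09 with *Malat1*. *Snhg1* and *Snhg12* had an r of 0.79 with each other, and all other pairs of hosts had r between -0.36 and 0.38. The score and the host levels share libraries and scaling, and the r values are given without a test.

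Annotation bears on these counts. In GENCODE every base of the *Snhg1* span (19, 8723475 to 8726443) and of the *Snhg12* span (4, 132308623 to 132311024) is in an exon of some transcript, so all 8 and all 5 annotated snoRNA entries lie within an exon and reads of the snoRNAs can be assigned to the host. The same is true of the 10 entries in *Gas5*, whose r with the score was 0.31, but not of *Snhg3* (4, 132348014 to 132353686), where neither of the 2 does. Of the snoRNAs in these hosts, *Snord22* in *Snhg1* had an r of 0.81 with its host, *Snora44* in *Snhg12* 0.60, *Snord47* in *Gas5* 0.11, and *Snora73a* and *Snora73b* in *Snhg3* -0.15 and -0.17. The part of snoRNA reads in the host counts was not tested. With the snoRNA score as a covariate the MSUS difference of *Snhg1* was -0.01 (SE 0.09).

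**Figure D4:**
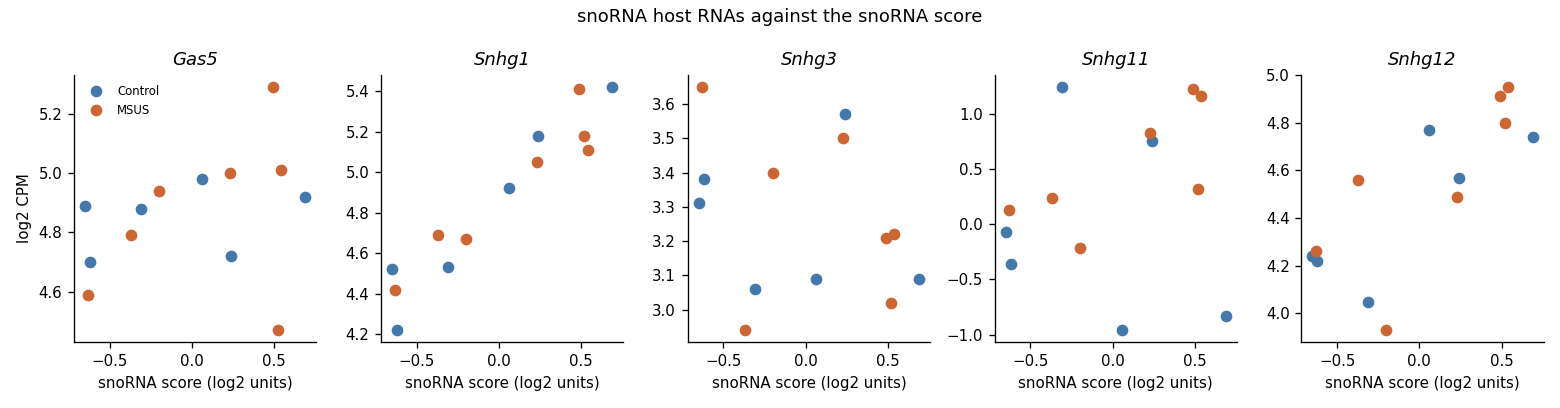
Level of the 5 host RNAs (y axis, log2 CPM) against the snoRNA score (x axis, mean deviation in log2 units over 64 snoRNAs), 1 point per sample, controls in blue and MSUS in orange. Snhg1 (r = 0.95) and Snhg12 (r = 0.78) rise with the score, and Gas5, Snhg3 and Snhg11 do not follow it (r between -0.28 and 0.31).

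Other measures of the libraries moved with *Malat1* to different degrees. The Sertoli marker mean had an r of -0.61 with it over the 13 samples (permutation p = 0.026; adjusted over 14 measures 0.178) and the share of counts on features without a name 0.55 (permutation p = 0.0498; adjusted 0.232). The r was 0.50 for the peritubular myoid marker mean, which was highest in MSUS 5 (4.37) and MSUS 26 (3.94), 0.50 for the Leydig cell marker mean, 0.27 for the total count, 0.11 for the number of genes detected and -0.09 for the elongated spermatid score. With the group means subtracted, as in the slope fit, r was 0.63 for the total count, 0.54 for the genes detected, 0.44 for the myoid and 0.49 for the Leydig markers and 0.46 for the unnamed share. It was -0.62 for the Sertoli markers, -0.47 for the round spermatid markers and -0.33 for the elongated spermatid score. The part of the total count, the unnamed share and the Sertoli, round spermatid, myoid and Leydig markers in the slopes was not tested. With the elongated spermatid score as a covariate the slope was 0.71 (SE 0.12) for *Neat1*, which was still called (limma voom adjusted p = 0.0245), and 0.58 (SE 0.12) for *Firre*, which was not (adjusted p = 0.0588). Overlapping annotation limits 2 hosts: *Snhg3* shares its span and strand with *Rcc1* (r = 0.36) and *Gas5* overlaps *Zbtb37* on the opposite strand (r = 0.25). *Malat1* and *Miat* are each crossed on the opposite strand by a feature that has no row in the table, and the strand setting of the counting is not given in the sources used here.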

How the data were processed

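RNA of sorted Sertoli cells from 13 males was sequenced from 5 ng with a stranded total RNA kit and 12 cycles of PCR, and read over 100 bp from a single end. The authors removed adapters (Trim Galore 0.6.5), assigned them with Salmon 1.1.0 to GENCODE vM23 transcripts and deposited estimated counts per gene, not normalized. How transcripts were summed and named is not given in the sources used here. The 27170 features with no gene name, with 20.7% to 26.7% of counts, were left out, and estimates were rounded.

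Levels are log2 CPM after TMM (edgeR 4.0.16) with a prior count of 2, and fits used limma voom, as the study's methods did (here limma 3.58.1 in R 4.3.3). Genes entered by filterByExpr and p-values were adjusted over all genes tested (Benjamini-Hochberg). Single RNAs were compared by exact permutation of the labels (smallest p 0.000583) and correlations by 100000 resamples. Scripts were tested on simulated data. Positions come from GENCODE vM21 and sequences from it and RefSeq, all GRCm38. The counts behind a level were lowest for *Miat* (4 to 35 a library) and *Snhg11* (4 to 30).

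The members, lists and tests were chosen with earlier results of these data known. Named were all members, the 5 genes most and least like *Malat1*, the 3 most like each other member, and, with some items not reported here, at most 2 per list with the smallest p in the MSUS and in the *Malat1* fit. Alternatives were edgeR's quasi-likelihood test, DESeq2 1.42.0, other normalizations, count filters, covariates and left-out samples.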

Additional observations from a re-analysis of the deposited data

How the results depend on the processing

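No gene and no member was called between MSUS and control males under any of the 24 alternatives, DESeq2 and leaving out each sample included. The 97 genes called on the *Malat1* slope became 39 with the elongated spermatid score as a covariate, 492 without a group term and 0 with the mitochondrial share, with the ribosomal protein score or without Control 24 and MSUS 5; leaving out single samples gave 14 to 116. The 2 members called became 1 with the elongated spermatid score and 0 with the mitochondrial share, the ribosomal protein score or without those 2 samples, and 0 to 2 when single samples were left out. *Neat1* was called under 21 and *Firre* under 17 of 26 alternatives, with slopes of 0.62 to 0.95 and 0.51 to 0.78. The ribosomal protein score and the snoRNA score as covariates, and the *Malat1* slope without those 2 samples, were chosen after seeing the data. The 500 genes called on the ribosomal protein score became 129 with no filter, 159 with the elongated spermatid score, 0 with the mitochondrial share and 910 without a group term, and 1 to 746 when single samples were left out, and 0 of the 9 RNAs tested was called under any of them. The mitochondrial share belongs to the values that chose *Malat1*, and the ribosomal protein score runs in parallel with another of them. The cause of these shifts was not tested.

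Differences that were never called changed sign as follows. MSUS difference: *Snhg3* -0.0304 with the elongated spermatid score, *Gas5* -0.0853 with the mitochondrial share, *Neat1* -0.0297 and *Gas5* -0.0965 with *Malat1*, and *Gas5* -0.00355, *Snhg1* -0.0133 and *Norad* 0.0171 with the snoRNA score as a covariate. Slope on *Malat1*: *Snhg3* 0.0829 and *Norad* -0.11 with the ribosomal protein score, and *Snhg11* -0.22 without Control 24 and MSUS 5. Slope on the ribosomal protein score: *Snhg12* -0.032 with library size alone and -0.0806 with the mitochondrial share, *Gas5* 0.38 with that share, and *Snhg11* -0.39 without a group term. Correlation with *Malat1*: *Miat* -0.098 without the 2 samples and *Snhg1* -0.075 within controls. Leaving out single samples gave MSUS differences of -0.0473 to 0.0818 for *Gas5*, -0.0447 to 0.0255 for *Norad* and -0.0193 to 0.111 for *Snhg3*, *Malat1* slopes of -0.0487 to 0.398 for *Snhg1* and -0.0279 to 0.299 for *Snhg12*, and ribosomal score slopes of -5.30 to 0.17 for *Miat*, -0.55 to 1.59 for *Snhg11* and -0.18 to 0.88 for *Snhg12*. Of 749 alternative values for single members, 693 were unchanged, meaning the same direction and side of the threshold. For the group difference and ribosomal score slope of *Malat1*, which have no threshold, unchanged means the same direction and a shift smaller than its SD within groups. No paired analysis was possible because the replicate numbers are animal numbers that the groups do not share.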
